A study of Mus musculus with 6 samples.

Results

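Transcripts of 10 genes that build the Z-disc, the titin filament and the M-band of the heart muscle sarcomere were measured in hearts of mouse embryos at embryonic day 11.5. The genes are Actn2, Ttn, Ldb3, Myom1, Myom2, Nebl, Csrp3, Tcap, Myoz2 and Smpx. Total RNA of whole dissected hearts was hybridised to single-colour CodeLink arrays. The mutant group (3 arrays) held hearts in which Dicer was inactivated by a Cre recombinase knocked into the Nkx2.5 locus, and the control group (3 arrays) held control hearts whose genotype the labels leave unstated. The Cre acts in cells descended from Nkx2.5-expressing progenitors, and cardiac cells outside that lineage keep Dicer. Every probe that the platform annotation assigns to one of these genes alone was taken, which gave 16 of the 21880 probes listed with a gene. They covered 9 genes, and Smpx had no listed probe. Of the 16 probes, 15 probes of 8 genes were flagged above background on 3 or more arrays and entered the test. The labels name no embryo, pool or litter, so the p-values measure only the spread between these arrays, which may be technical.

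A sarcomere is the contractile unit of a muscle cell. Z-discs bound it and anchor the actin filaments, which the alpha-actinin encoded by Actn2 crosslinks. Titin, the giant protein of Ttn, runs from the Z-disc to the M-band, where myomesins crosslink the myosin filaments. Dicer cuts miRNA precursors into mature miRNAs, and the design asks how gene expression in the embryonic heart differs once it is lost. In RNA of a whole organ, fewer muscle cells and less RNA per muscle cell cannot be told apart.

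Each array carried 36227 spots, of which 74.1% to 78.2% were above background. Signals are given as log2 intensity after background correction and quantile normalization, and differences as log2 mutant minus control. Dicer1 was at 6.71, 6.73 and 6.70 in the mutants, against 7.82, 7.64 and 7.71 in the controls, a difference of -1.02 ± 0.09 (SE, limma adjusted p = 0.041). Every mutant thus lay below every control, the direction that the labels imply. Its probe could lie outside the deleted exons, so the size of the fall does not measure the loss of Dicer. Of 17723 probes tested, 8 passed an adjusted p of 0.05, and 1761 had an unadjusted p under 0.05. Control 3 stood apart from the other controls: on the first principal component (54.3% of the variance) it was at -20.4, beside mutants 1 and 2 at -18.3 and -29.8, whereas controls 1 and 2 were at 36.7 and 26.0. Mutant 3 was at 5.82 on that component and stood apart on the second, at -34.1. Results below are therefore also given without control 3 where that array decides them. Control 3 was singled out because it lay beside mutants, so leaving it out favours group differences and makes p-values too small. Calls made without it are descriptions only. With any other array left out, 0 or 1 of all probes passed.

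No probe of the Z-disc, titin and M-band genes passed limma's test over all probes, against 0.0451% of all probes tested. The 15 probes had adjusted p from 0.337 to 0.98. At an unadjusted p under 0.05, 3 of the 15 probes were higher in the mutant and none was lower, with a background of 6.64% of all probes higher and 3.30% lower. They were a probe of Ttn, the Myom1 probe and the dimmer probe of Nebl. The groups did not overlap in 4 probes, those 3 and a further probe of Ttn, each with the mutants on the higher side; over all probes this held for 9.57%, and the reverse for 5.82%. Probes of a gene share their transcript, and by the brightest probe of each gene only Myom1, 1 of 8 genes, had groups that did not overlap, beside 15.4% of all genes in either direction. The brightest probes gave 3 differences above 0 (Ttn, Nebl and Myom1) and 5 below 0 (Actn2, Tcap, Ldb3, Myoz2 and Csrp3), with a median of -0.24 beside 0.0070 for all 15009 genes.

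**Figure D1:**
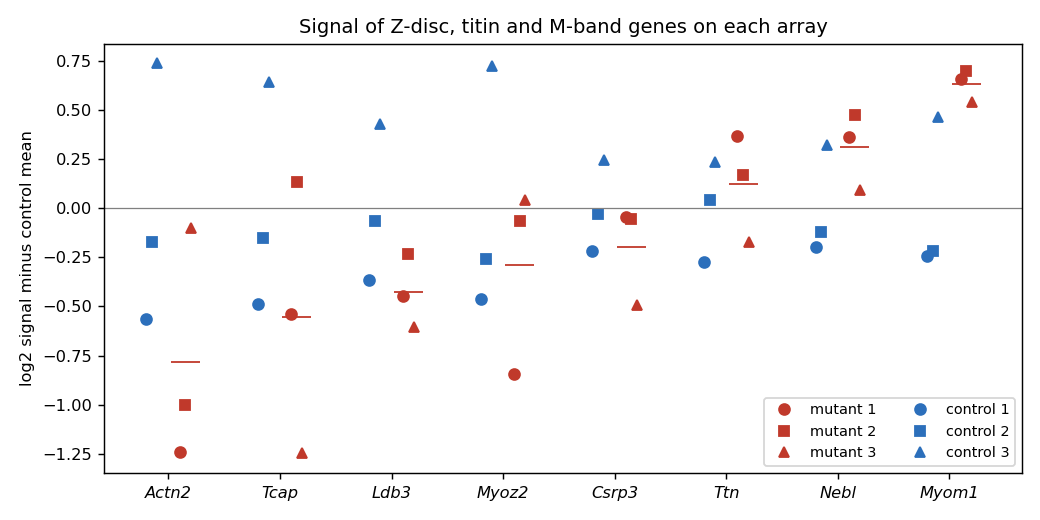
Log2 signal of the brightest tested probe of 8 genes on each of the 6 arrays, minus the mean of the 3 controls for that gene, with mutants in red, controls in blue, replicate 1 as circles, 2 as squares and 3 as triangles; short red lines mark the mutant mean. Control 3 is the highest point for the 5 genes at the left, and the groups separate for Myom1 alone.

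Actn2 encodes the sarcomeric alpha-actinin, the actin crosslinker that defines the Z-disc. Its log2 signal was 7.27, 7.51 and 8.41 in mutants 1, 2 and 3 and 7.95, 8.34 and 9.25 in controls 1, 2 and 3. Mutants 1 and 2 lay below every control, but mutant 3 lay above controls 1 and 2, so the groups overlapped. The means were 7.73 ± 0.60 and 8.51 ± 0.67 (SD, n = 3 each). The difference was -0.78 ± 0.41 (SE), or 0.582 of the control level with a 95% interval of 0.297 to 1.14 (limma adjusted p = 0.571). The signal was modest: background-subtracted intensities ran from 112 to 253 in the mutants and from 191 to 538 in the controls. Without control 3 the difference was -0.41, and without mutant 3 it was -1.12.

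Ldb3 encodes the PDZ and LIM domain protein Cypher (ZASP), which binds alpha-actinin at the Z-disc. Its log2 signal was 10.08, 10.29 and 9.92 in the mutants, against 10.16, 10.46 and 10.96 in the controls. Only mutant 2 reached into the control range, above control 1. The difference was -0.43 ± 0.21 (SE), a ratio of 0.743 with a 95% interval of 0.522 to 1.06 (limma adjusted p = 0.568). It was -0.21 without control 3. The titles of mutants 1 and 2 and control 1 start with the same number, which may stand for a slide but is not explained in the labels; within that inferred slide it was 0.02.

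Tcap, Myoz2 and Csrp3 encode small proteins of the Z-disc. Telethonin (Tcap) caps the titin ends, calsarcin-1 (Myoz2) ties calcineurin to alpha-actinin, and the muscle LIM protein (Csrp3) takes part in mechanical sensing. Tcap was at 8.59, 9.26 and 7.89 in the mutants, against 8.64, 8.98 and 9.77 in the controls, with mutant 3 lowest, control 3 highest and the other arrays interleaved. Its difference was -0.55 ± 0.41 (SE, limma adjusted p = 0.672). Myoz2 was at 9.91, 10.68 and 10.79 in the mutants, against 10.29, 10.49 and 11.47 in the controls. Mutants 2 and 3 lay above controls 1 and 2, and only mutant 1 lay below all controls. The Myoz2 difference was -0.29 ± 0.36 (SE, limma adjusted p = 0.818) and became 0.07 without control 3. Csrp3, whose probe was bright, was at 13.38, 13.37 and 12.94 in the mutants, against 13.21, 13.40 and 13.67 in the controls. Mutant 3 was lowest and control 3 highest, and the difference was -0.20 ± 0.17 (SE, limma adjusted p = 0.727), a ratio of 0.873 with a 95% interval of 0.655 to 1.16. For these 3 genes no difference was detectable with 3 arrays a group: the upper ends of the intervals were ratios of 1.34 for Tcap and 1.49 for Myoz2, and the lower ends 0.347 and 0.448.

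Each of these 5 genes, grouped here because their difference lay below 0, had its highest signal on control 3; a high control array favours such a difference, so this is a description. Control 3 was the highest array for 22.1% of all genes measured on every array, and mutant 3 for 21.96%. Of the 8 genes, 5 were highest on control 3, 2 on mutant 2 and 1 on mutant 1. The lowest signal was on control 1 for 3 genes, on mutant 3 for 3 and on mutant 1 for 2. Without control 3 the median difference of the 8 genes was -0.00084, beside -0.24 with it. Without it Actn2 gave -0.41, Tcap -0.23, Ldb3 -0.21, Csrp3 -0.07 and Myoz2 0.07, where all 6 arrays gave -0.78, -0.55, -0.43, -0.20 and -0.29. Other arrays moved some of these values as much. Without mutant 3 Tcap gave -0.20 and Csrp3 -0.05, and without mutant 2 Tcap gave -0.89 and without mutant 1 Myoz2 -0.01.

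Myom1 encodes myomesin 1, the M-band protein that crosslinks myosin filaments and binds titin. Its log2 signal was 9.07, 9.11 and 8.95 in the mutants, against 8.17, 8.20 and 8.88 in the controls. All mutants lay above all controls, although control 3 came within reach of mutant 3. The means were 9.05 ± 0.08 and 8.41 ± 0.40 (SD, n = 3 each). The difference was 0.63 ± 0.20 (SE), or 1.55-fold with a 95% interval of 1.11 to 2.15, and it did not pass over all probes (unadjusted p = 0.0167, limma adjusted p = 0.367). Without control 3 Myom1 was higher by 0.86 ± 0.10 and passed (limma adjusted p = 0.0391), in a fit in which 376 probes passed. Since control 3 was singled out after its position was seen, that p is too small and the call is a description. Within the inferred slide, mutants 1 and 2 against control 1, the Myom1 difference was 0.92. That value rests on a control group of 1 array, and no p is given for it. Myom2, the myomesin typical of mature fast and adult cardiac muscle, was not well above background on any of the 6 arrays, and no difference is given for it. Of the other M-band genes listed, Myom3 was also not above background on any array, Nbr1 gave 0.26 ± 0.11 and Obsl1, which links titin and myomesin, -0.58 ± 0.34 (SE), neither passing. Without control 3 Obsl1 gave -0.97 ± 0.19 (limma adjusted p = 0.0645).

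Titin was represented by 7 tested probes, and they did not give the same difference. Probe 2332, the brightest, was at 13.26, 13.07 and 12.73 in the mutants, against 12.62, 12.94 and 13.14 in the controls. The groups overlapped throughout, with a difference of 0.12 ± 0.19 (SE, limma adjusted p = 0.857). Probe 12588 was at 12.11, 11.76 and 11.40 in the mutants, against 11.37, 11.24 and 11.42 in the controls, and control 3 lay just above mutant 3. Its difference was 0.41 ± 0.18 (SE, limma adjusted p = 0.528).

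Probe 22933 of Ttn was at 8.77, 8.18 and 7.71 in the mutants, against 7.52, 7.34 and 7.11 in the controls, with no overlap. The difference was 0.90 ± 0.27 (SE), or 1.86-fold with a 95% interval of 1.20 to 2.90 (unadjusted p = 0.0128, limma adjusted p = 0.337). In background-subtracted intensity it read 414, 242 and 136 in the mutants, against 128, 116 and 84.9 in the controls. Probe 35405 was at 8.18, 7.22 and 6.77 in the mutants, against 6.63, 6.74 and 6.76 in the controls. Mutant 3 at 6.769 and control 3 at 6.762 nearly coincided, so the groups only just failed to overlap, and mutant 1 stood far above the rest. The difference was 0.68 ± 0.33 (SE, limma adjusted p = 0.564), and without mutant 1 it was 0.29. Probe 22933 gave 0.62 without mutant 1. The same 2 probes gave larger differences, 1.16 and 1.07, with the authors' normalized intensity, to which no offset was added, and the dim probe 4052 went from -0.15 to -0.47.

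The remaining Ttn probes were dim on all 6 arrays. Probe 11186 lay between 6.68 and 6.84 on all 6 arrays and differed by 0.01 ± 0.09 (SE). Probe 9733 was above background on 4 arrays and differed by 0.02 ± 0.17, and probe 4052 was above background on 3 arrays and differed by -0.15 ± 0.10. Such signals are close to the lowest signal flagged above background, which was 6.05 to 6.18 by array, and the offset used in the background correction pulls their differences towards 0. The mean of all 7 probes gave 0.28 for Ttn. Titin transcripts are spliced into many isoforms, and the positions of these probes in the transcript are not known here.

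**Figure D2:**
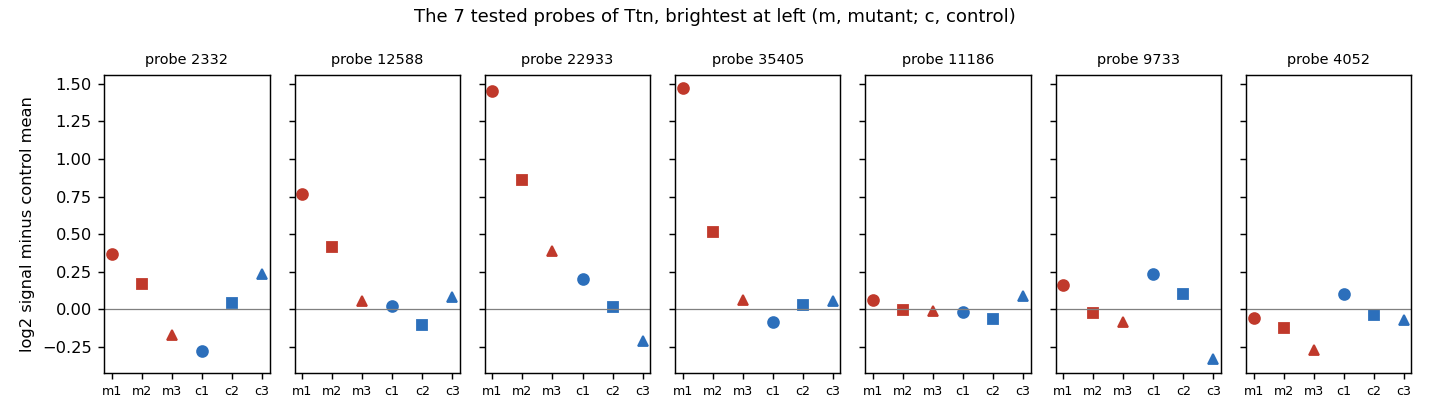
Log2 signal of each of the 7 tested Ttn probes on the 6 arrays (m1 to m3 mutants in red, c1 to c3 controls in blue), minus that probe's control mean, with the brightest probe at the left. Mutant 1 is highest for probes 2332, 12588, 22933 and 35405, and the 3 dimmest probes vary less than the others (0.15, 0.37 and 0.56 from lowest to highest array).

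Whether the Ttn probes changed unequally was examined on the 6 arrays directly, a comparison chosen after the values were seen. The log2 ratio of probe 22933 to probe 2332 was higher in the mutants than in the controls by 0.78 ± 0.31 (SE), with no overlap between the groups. The ratio of probe 35405 to probe 2332 was higher by 0.56 ± 0.29, also with no overlap, and that of probe 12588 to probe 2332 by 0.29 ± 0.16, with overlap. An exact two-sided permutation test gave p = 0.1, 0.1 and 0.3 for these ratios (adjusted p = 0.2, 0.2 and 0.45 over 6 such comparisons), and 0.1 is the smallest p that 3 against 3 arrays can give.

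Nebl encodes nebulette, the cardiac nebulin-like protein of the Z-disc end of the thin filament. Its brighter probe, 13203, was at 9.87, 9.99 and 9.61 in the mutants, against 9.32, 9.39 and 9.84 in the controls. Mutants 1 and 2 were highest, and control 3 lay above mutant 3. The difference was 0.31 ± 0.17 (SE, limma adjusted p = 0.591), and 0.47 without control 3. The dimmer probe, 35605, was at 7.20, 7.25 and 7.24 in the mutants, against 7.08, 6.91 and 6.90 in the controls, with no overlap. It differed by 0.26 ± 0.09 (SE), or 1.20-fold with a 95% interval of 1.03 to 1.40 (unadjusted p = 0.0280, limma adjusted p = 0.423). Without control 3 the dimmer probe gave 0.23, beside 0.47 for the brighter. Over all 6 arrays the log2 ratio of the dimmer to the brighter probe differed by -0.05 ± 0.24 (SE), with overlap (exact two-sided permutation p = 0.9).

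**Figure D3:**
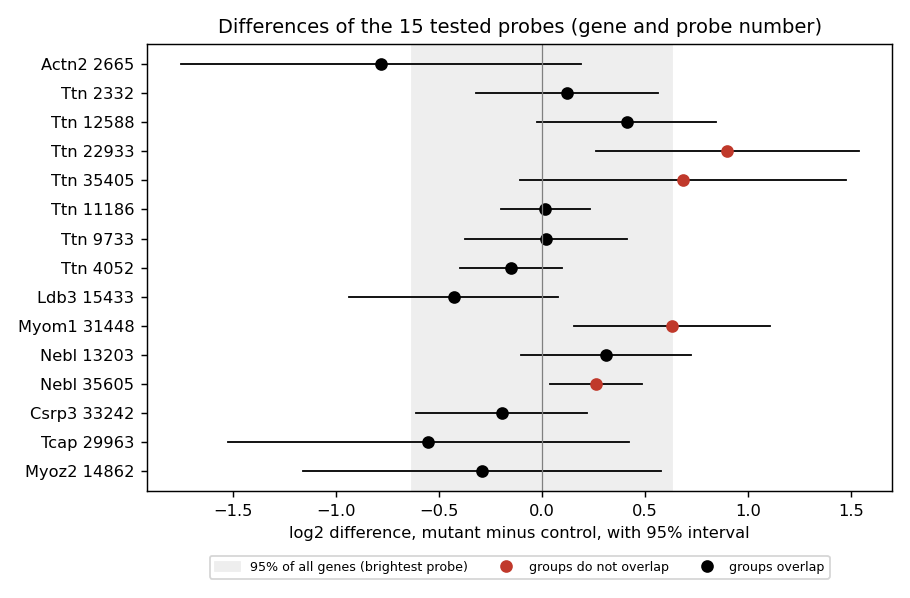
Log2 difference, mutant minus control, with its 95% interval for each of the 15 tested probes; red points are probes whose groups do not overlap, and the grey band holds the differences of 95% of all genes by their brightest probe (0.63 either side of 0). Actn2 lies beyond the band on the lower side, and Myom1 and Ttn probes 22933 and 35405 lie at or beyond its upper edge.

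By their brightest probes Actn2 and Myom1 lay at the lower and the upper end of the 8 genes. The log2 ratio of the Myom1 to the Actn2 probe was higher in the mutants by 1.41 ± 0.43 (SE). Set against the control mean of that ratio, mutants 1, 2 and 3 were at 1.90, 1.70 and 0.64 and controls 1, 2 and 3 at 0.32, -0.04 and -0.27, so the groups did not overlap. The exact two-sided permutation test gave p = 0.1, the smallest possible here, and an adjusted p of 0.2. The pair was chosen for its difference on these same arrays, which favours separation. The adjustment over 6 comparisons does not cover that choice, so these p-values do not test the separation.

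To show the regulatory sequence of genes on either side of 0, the 250 bases before the listed transcript start are printed for Actn2 and Csrp3, which were lower on average, and for Ttn and Myom1, which were higher. None of these differences passed, and those of Csrp3 and Ttn changed sign under some alternatives. They are from RefSeq on mouse build GRCm38.p6, read 5′ to 3′ along the gene's strand: Actn2 at chr13:12340733-12340982 (minus strand), Csrp3 at chr7:48848052-48848301 (minus), Ttn at chr2:76982548-76982797 (minus) and Myom1 at chr17:71019307-71019556 (plus). Capitals mark matches, on either strand, to an E-box (CANNTG), the CArG box of serum response factor, the MEF2 box or TATAAA; no matches overlap in these windows.
Actn2: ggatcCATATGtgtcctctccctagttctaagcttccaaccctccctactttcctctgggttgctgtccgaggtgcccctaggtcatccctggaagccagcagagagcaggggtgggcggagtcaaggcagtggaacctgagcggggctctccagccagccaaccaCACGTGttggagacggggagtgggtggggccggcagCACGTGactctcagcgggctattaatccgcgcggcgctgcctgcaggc
Csrp3: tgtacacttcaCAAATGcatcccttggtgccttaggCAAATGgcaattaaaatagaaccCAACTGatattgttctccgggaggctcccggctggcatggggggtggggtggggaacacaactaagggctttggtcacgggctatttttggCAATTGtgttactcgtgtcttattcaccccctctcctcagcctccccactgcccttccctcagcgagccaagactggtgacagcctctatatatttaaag
Ttn: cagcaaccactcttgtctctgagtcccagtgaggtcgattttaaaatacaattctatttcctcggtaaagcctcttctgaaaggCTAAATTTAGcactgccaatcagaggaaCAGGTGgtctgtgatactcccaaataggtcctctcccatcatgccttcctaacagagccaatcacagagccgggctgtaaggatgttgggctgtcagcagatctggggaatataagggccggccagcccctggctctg
Myom1: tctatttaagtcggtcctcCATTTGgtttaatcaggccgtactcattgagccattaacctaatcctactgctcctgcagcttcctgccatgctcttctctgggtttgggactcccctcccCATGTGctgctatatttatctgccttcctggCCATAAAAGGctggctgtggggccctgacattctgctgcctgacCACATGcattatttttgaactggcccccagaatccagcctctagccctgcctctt

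The capitals in Actn2 and Csrp3 are E-boxes, 3 and 4 of them. Ttn holds 1 E-box and a MEF2 box, and Myom1 holds 3 E-boxes and a CArG box from -99 to -90 relative to the start. RefSeq windows were matched for 8 of the 10 genes, 13 windows in all, and Tcap and Myom2 had none in the table. A CArG box occurred in 4 of the 13 windows, of 3 genes (Nebl, Ldb3, whose windows share it, and Myom1), and in 1.47% of all 32851 windows. A MEF2 box occurred in 2 windows, of Ttn and Myoz2, and in 2.92% of all windows. E-boxes were in 8 of 13 windows and 66.2% of all, and TATAAA was in none of the 13 and 12.4% of all. A match describes the letters only.

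**Figure D4:**
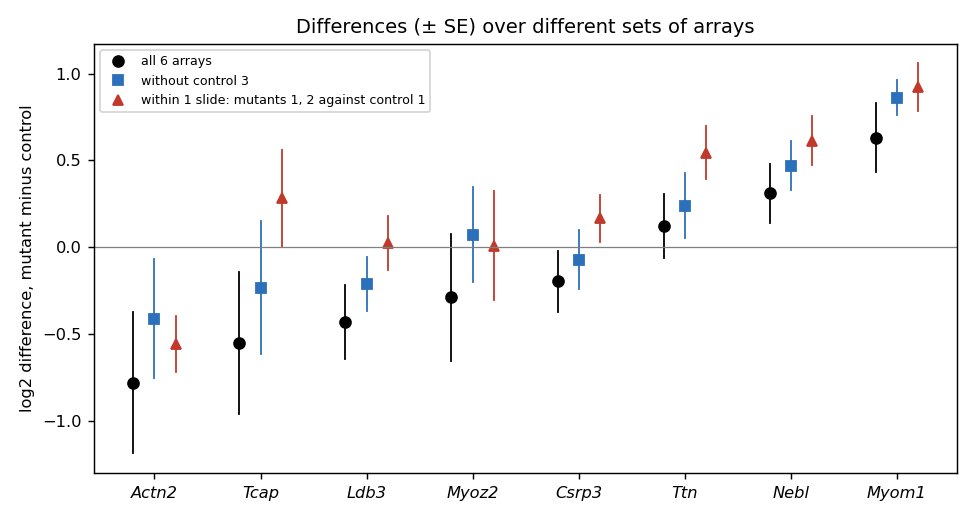
Log2 difference with its standard error for the brightest probe of 8 genes, over all 6 arrays (black circles), without control 3 (blue squares) and within the inferred slide, mutants 1 and 2 against control 1 (red triangles). Actn2 stays below 0 and Ttn, Nebl and Myom1 above 0 in all 3 sets, and Tcap, Ldb3, Myoz2 and Csrp3 cross or reach 0 within the slide.

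Among the brightest probes, Actn2, Ldb3, Tcap and Myoz2 spanned more than 1 log2 unit over the 6 arrays (1.98, 1.03, 1.89 and 1.57). For these the genes with the nearest profile were found by the root mean square difference of log2 signals, each centred on its own mean over 6 arrays. The nearest to Actn2 were Tmem114 at 0.181, Hspb6 at 0.233 and Ptgds at 0.233, beside a root mean square of 0.649 for the Actn2 profile itself. The nearest to Myoz2 were Lyz2 at 0.113, Cav1 at 0.128 and Hspb6 at 0.143. Zfp469 at 0.133 was nearest to Tcap, and Gm20735 at 0.0581 and Kcne1 at 0.0635 to Ldb3.

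Other genes of the sarcomere and its attachments were read from lists of known members, described by their counts. Of 66 such genes tested, 0 passed over all probes by limma (10 had an unadjusted p under 0.05, beside 10.2% of all genes), and without control 3 the count was 2, Fhl1 and Myl3, both lower, in a fit in which 2.12% of all probes passed. List medians without control 3 were 0.14 for the other Z-disc and titin-associated genes, 0.12 for the thin filament, 0.28 for the thick filament, 0.44 for assembly and folding and 0.19 for the transcription factors. They were 0.20 for the costamere and intercalated disc and -0.31 for the 2 other M-band genes tested. Of 23 other Z-disc and titin-associated genes, 13 lay above 0 and 10 below, with a median of 0.03 and 3 non-overlapping genes on each side. Fhl1, a LIM protein that binds titin, was at 9.55, 9.36 and 9.35 in the mutants, against 10.17, 10.25 and 10.70 in the controls. Its difference was -0.95 ± 0.16 (SE, limma adjusted p = 0.14), and -0.79 with an adjusted p of 0.0421 without control 3. Fhod3, a formin needed for sarcomere assembly, was at 7.17, 7.18 and 7.41 in the mutants, against 6.41, 6.64 and 6.88 in the controls, a difference of 0.61 ± 0.15 (limma adjusted p = 0.242). Myot, Xirp2, Ankrd2, Nrap and Cavin4 were above background on at most 2 arrays and were not tested.

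The filaments that the Z-disc and M-band hold showed both directions as well. Of 7 thin filament genes tested 5 lay above 0, with a median of 0.04. Tnni3, cardiac troponin I, gave 0.40 ± 0.15 and Tnnt2, cardiac troponin T, 0.40 ± 0.20 (SE), with limma adjusted p of 0.438 and 0.564, and Tnnt2 gave 0.60 without control 3. Of 6 thick filament genes 3 lay above 0, with a median of 0.10. Myl3, the ventricular essential light chain, was lower on every mutant array, at -0.81 ± 0.12 (limma adjusted p = 0.128, and 0.045 without control 3). Myh6 gave 0.57 ± 0.14 from 5 arrays, since control 3 carried an outlier flag, and from a dim signal. Actc1 and Myl7 were bright but saturated, and outlier flags left at least 1 group without a value, so no difference is given.

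Of 13 costamere and intercalated disc genes, which tie the outermost Z-discs to the membrane, 10 lay above 0 and 4 did not overlap, all higher, with a median of 0.16. Ctnna3, alpha-T-catenin, gave 0.99 ± 0.32 and Pkp2, plakophilin 2, 0.61 ± 0.24 (SE), with limma adjusted p of 0.372 and 0.471. The 4 assembly and folding genes tested all lay above 0, between 0.13 and 0.35, and Dnajb6 gave 0.25 and Hspb7 0.35 (0.57 without control 3). Of 10 transcription factors of sarcomere genes 7 lay above 0, with a median of 0.11. Myocd, the myocardin cofactor of serum response factor, gave 0.66 ± 0.35 and Mef2a 0.17 ± 0.11 (limma adjusted p = 0.573 and 0.632). The non-muscle alpha-actinin Actn4 gave -0.10 ± 0.21, and -0.31 without control 3. By all genes as background, 51.6% lay above 0 and 15.4% did not overlap.

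**Figure D5:**
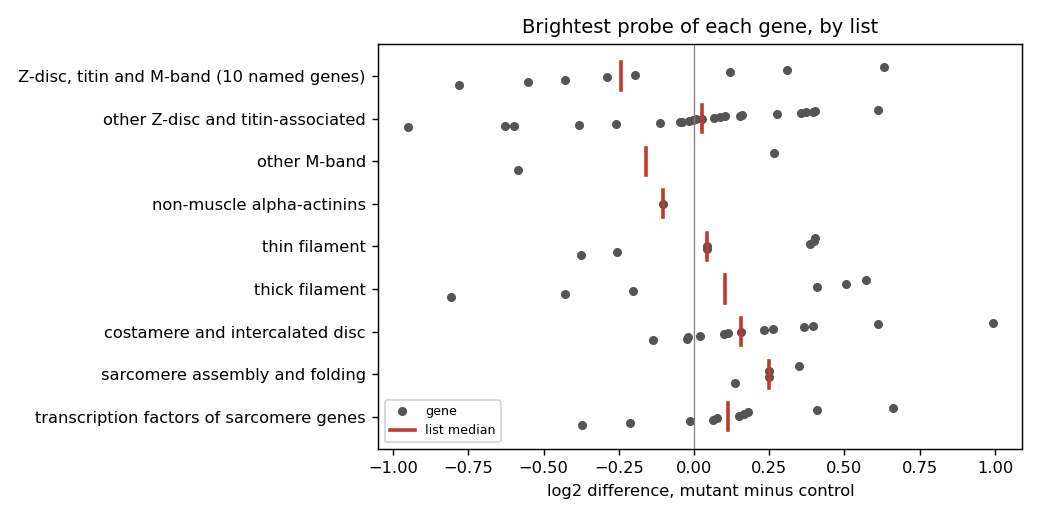
Log2 difference, mutant minus control, of the brightest tested probe of each gene (grey points) in the 10 named genes, of which 8 were tested, and in 8 other lists, with list medians as red lines. The 8 genes run from -0.78 to 0.63 with a median of -0.24, and the other lists spread to both sides of 0 except the assembly and folding genes, all above 0, and the list that holds only Actn4.

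Cell type markers were read beside these values. Cardiomyocyte genes outside the sarcomere were present on all arrays: of 13 with a probe 12 were tested, 7 above 0 and 5 below, with a summed linear signal of 46349 to 56593 in the mutants and 36190 to 52446 in the controls. The sum was lowest on control 3, where Atp2a2, the bright calcium pump gene, was at 12.39 against 14.07 and 14.51 in controls 1 and 2; the median of the genes, each centred on its own mean, was 0.02 on control 3, -0.05 on control 1 and 0.01 on control 2. Mb, myoglobin, gave -2.04 ± 0.31 and Slc8a1 0.68 ± 0.13 (SE). The summed signal of 6 epicardial genes was 9736 and 9087 in controls 1 and 2 but 4737 in control 3, within the mutants' 4365 to 5905. Tcf21 and Bnc1, at -0.46 and -1.19, carried much of that sum. Of the 6 genes 2 lay above 0 (Upk3b at 0.19, Wt1 at 0.12), with a list median of -0.09. The median of the epicardial genes, each centred on its own mean, was 0.03, 0.07 and -0.05 on controls 1, 2 and 3. For 8 endothelial genes the summed signal was 6948 to 8169 in the mutants and 8103 to 8444 in the controls (Cd34 at -0.37, Esam at -0.25), and for 7 cushion mesenchyme genes 9833 to 10833 and 8099 to 8863. Of those 7, the bright Vcan and Fbln1 gave 0.63 and 0.74 and the other 5 lay below 0 (Postn at -0.54, Lum at -0.60), with a list median of -0.27. Of 9 erythroid genes 3 globin genes were saturated, with flagged spots on some arrays. The other 6 summed to 4494 to 6873 in the mutants, and to 14740, 12188 and 5097 in controls 1, 2 and 3, with Gata1 at -0.68, Rhag at -0.28 and Slc4a1 at -0.84. Without control 3 Slc4a1 gave -1.63 and passed (limma adjusted p = 0.0448). For 4 smooth muscle genes the sums were 19888 to 25421 in the mutants and 18597 to 20562 in the controls, with Cnn1 at 0.46 and Myh11 at 0.34. Acta2, the brightest of them, gave 0.08 with overlapping groups, and Smtn gave 0.03.

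Skeletal muscle genes matter here because most Z-disc and M-band genes are shared by heart and skeletal muscle. Of 11 such genes 8 were tested, with 5 above 0, 3 below 0 and a median of 0.02. Among genes that define skeletal muscle and its precursors, Myog, Myf6 and Pax7 were not above background on any array. Myf5 was on 6 arrays and Myod1 on 5, at differences of 0.02 and -0.03. Myod1 lay between 6.17 and 6.45, close to the lowest signal flagged above background (6.05 to 6.18 by array). At that level the offset pulls a difference towards 0. The summed signal of the tested genes was 9452 to 11408 in the mutants and 6815 to 7672 in the controls. Tnni2 and Tnnt3 carried much of that sum, while Myh8 gave -1.02 and Myh3 -0.06. Tnnt3, fast troponin T, gave 2.65 ± 0.39 and Tnni2, fast troponin I, 0.79 ± 0.11 (SE), and both passed without control 3. The part of these cell types in the differences of the Z-disc and M-band genes was not tested.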

How the data were processed

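Biotin-labelled total RNA of embryonic hearts was hybridised to 6 CodeLink arrays, per the labels. Each deposited file holds, per the file headers, the mean intensity of each spot and the median of its local background, the subtracted value, the normalized value and a flag. The authors' normalized intensity equalled the subtracted intensity divided by a constant per array (66.1 to 82.8), and the series' value table held it for spots flagged good (column medians 1.83 to 2.06, linear scale). The labels name no scanner, software or genome build.

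Spot means were corrected with normexp (offset 50), converted to log2 and then quantile-normalized, in limma 3.58.1 (R 4.3.3). Spots flagged contaminated, irregular or missing (335 to 435 per array) were then set missing, which touched no probe of the 10 genes. Probes listed with a gene and above background on at least 3 arrays were fitted with lmFit and eBayes (two-sided, no block, Benjamini-Hochberg over 17723 probes, threshold 0.05). Control spots are not marked. Of 21676 probes with 1 gene, 21541 matched RefSeq genes by gene number; 204 with several genes were fitted but not named. A gene is represented by its brightest probe unless said. The number of arrays limits precision. Summed signals cover genes measured on all 6 arrays. The script was tested on simulated data.

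Members and lists were chosen with earlier results of these data known. Named genes are the 10 genes, Dicer1, and from each list up to 4 passing genes or else the 2 with the smallest p; for members spanning over 1 log2 unit the 3 nearest profiles were found. Alternatives covered background correction, normalization, filter, variance model, array weights, title number, slide, probe summary and each array left out. Contrasts between probes, and lists without control 3, were added after seeing the data.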

Additional observations from a re-analysis of the deposited data

How the results depend on the processing

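The number of probes of these genes that passed, 0, was 7 with array weights (6 higher, 1 lower) and 0 to 1 with each array left out, the call being Myom1 without control 3. With the inferred slide as a block the comparison rests on mutants 1 and 2 against control 1. No count of passing probes of these genes is given for that fit. Its count over all probes, listed below, rests on 1 control array. That count is not to be compared with the count of the main fit. With array weights, which ranged from 0.29 for mutant 3 to 6.32 for control 2, 4295 of all probes passed (2370 higher, 1925 lower). The count over all probes, 8 (5 higher, 3 lower), was 0 with the subtracted intensity, 4 with the authors' normalized intensity (1 higher, 3 lower), 5 with the value table (2 higher, 3 lower), 1896 with the slide as a block (850 higher, 1046 lower) and 0 to 376 with each array left out. At an unadjusted p under 0.05 limma gave 1644 with the subtracted intensity. The median difference, -0.24, was 0.22 with the slide as a block and -0.41 to -0.00084 with each array left out. The lists of other sarcomere and attachment genes had 0 passing genes, and 2 without control 3; the marker lists had 0, and 3 without control 3 (Tnnt3 and Tnni2 higher, Slc4a1 lower).

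The titles' middle number is shared by a mutant and a control each. As a replicate block it gave 0 passing probes of all tested (1306 at an unadjusted p under 0.05) and 0 of these genes. Deviations of arrays sharing a number correlated at 0.01, -0.49 and -0.38, so the number was not taken to pair them.

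Of 276 values of single probes under the alternatives, 253 kept direction and side of the threshold, 9 gained a call and 14 changed sign, none of those with a call. The gained calls include Myom1 with the slide as a block, which rests on 1 control array and is not to be read as a call. With the slide as a block Ldb3 gave 0.023, Csrp3 0.17, Tcap 0.28, Myoz2 0.0082 and Ttn probe 9733 -0.16. That Ttn probe also gave -0.21 with the value table, -0.067 with array weights and -0.15 to 0.13 with each array left out, below 0 without mutant 1 and without control 3. With each array left out Ttn probe 2332 gave -0.017 to 0.27, below 0 without mutant 1 (-0.00058) and control 1, Ttn probe 11186 -0.019 to 0.058, below 0 without mutant 1 (-0.0087) and control 2, and Myoz2 -0.52 to 0.072, above 0 without control 3. The cause was not tested. Signals near background limit the dim Ttn probes.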
